A study of Homo sapiens with 4 samples.

Results

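The circadian clock genes described here are 10 rows of the deposited gene count table, chosen by symbol: PER1, PER2, PER3, CRY1, CRY2, CLOCK, NR1D1, NR1D2, DBP and BHLHE40. All 10 were found among 28278 genes, and all 10 were among the 17271 genes with enough counts to be tested. RNA sequencing had been run on A549 cells, an established line of human lung adenocarcinoma, that carried either a CBX7 expression construct (2 libraries, genotype CBX7 overexpression) or a control construct (2 libraries, genotype WT). Both stable lines were made by lentiviral infection and were grown in the same serum-containing medium, and the series holds no uninfected cells. CBX7 is a chromobox subunit of Polycomb repressive complex 1, which keeps genes silent through chromatin. No source used here gives the hour of harvest, a step that synchronised the cells, or whether the 2 libraries of a line came from separate cultures or clones, so p-values measure the spread between these libraries, which may be technical.

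The clock is a feedback loop of transcription that runs in nearly every cell. CLOCK and its partner BMAL1 bind E-boxes and switch on the PER and CRY genes, whose proteins return to the nucleus and block CLOCK and BMAL1. In a second loop the nuclear receptors NR1D1 and NR1D2 (REV-ERB alpha and beta) repress BMAL1, and PAR-bZIP factors such as DBP carry the rhythm to output genes through D-boxes. BHLHE40 (DEC1) competes for E-boxes and represses the same targets. In lung epithelium the clock is known for its ties to glucocorticoid and inflammatory signals, and PER1, PER2, NR1D1 and BHLHE40 also answer such signals directly.

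The promoters of the 4 members with the largest falls, and of PER2, the member that rose, are printed here because the changes described afterwards divide these genes. Each is a RefSeq window on GRCh38.p14 from 250 bases before the annotated start to 50 bases after it, written 5′ to 3′ on the gene's own strand. All 10 members matched the RefSeq table, with 14 windows in all, since CLOCK, CRY2, NR1D2 and PER3 each have a second start. Capitals mark the E-box CACGTG, the related E′-box CACGTT, the D-box TTATGTAA or TTACGTAA, the RORE core AGGTCA and the short cAMP response element TGACG, each on either strand. The minus-strand form of the E′-box therefore reads AACGTG, that of the first D-box TTACATAA, that of the RORE core TGACCT and that of the short element CGTCA. The windows lie at chr17:40100540-40100839 (NR1D1, minus strand), chr17:8152355-8152654 (PER1, minus strand), chr3:23945871-23946170 (NR1D2, second start, plus strand), chr3:4979187-4979486 (BHLHE40, plus strand) and chr2:238288561-238288860 (PER2, minus strand). The NR1D2 window printed is the one with more motif letters. Its first window, at chr3:23945036-23945335, holds 1 short cAMP response element and none of the other motifs.
NR1D1: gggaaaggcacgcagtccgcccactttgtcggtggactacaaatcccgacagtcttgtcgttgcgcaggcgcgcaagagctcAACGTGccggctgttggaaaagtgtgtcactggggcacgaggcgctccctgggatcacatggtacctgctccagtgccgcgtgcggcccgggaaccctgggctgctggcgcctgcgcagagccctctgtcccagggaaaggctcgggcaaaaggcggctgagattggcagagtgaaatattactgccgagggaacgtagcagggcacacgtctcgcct
PER1: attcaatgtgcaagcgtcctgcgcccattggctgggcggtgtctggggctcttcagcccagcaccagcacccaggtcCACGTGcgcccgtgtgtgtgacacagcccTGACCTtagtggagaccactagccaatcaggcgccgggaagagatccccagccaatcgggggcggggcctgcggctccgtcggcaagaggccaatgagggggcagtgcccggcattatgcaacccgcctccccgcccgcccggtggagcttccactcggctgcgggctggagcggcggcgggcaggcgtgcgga
NR1D2: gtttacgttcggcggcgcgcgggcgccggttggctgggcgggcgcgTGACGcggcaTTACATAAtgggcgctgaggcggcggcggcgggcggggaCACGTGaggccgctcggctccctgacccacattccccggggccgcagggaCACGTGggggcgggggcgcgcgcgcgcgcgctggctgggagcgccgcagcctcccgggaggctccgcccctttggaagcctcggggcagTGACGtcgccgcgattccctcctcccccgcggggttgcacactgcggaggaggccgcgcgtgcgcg
BHLHE40: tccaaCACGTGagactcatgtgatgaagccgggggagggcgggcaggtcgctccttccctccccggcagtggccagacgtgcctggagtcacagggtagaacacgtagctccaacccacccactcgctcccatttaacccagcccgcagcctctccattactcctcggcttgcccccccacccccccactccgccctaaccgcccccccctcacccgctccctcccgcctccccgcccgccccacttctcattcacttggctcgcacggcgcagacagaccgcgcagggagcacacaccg
PER2: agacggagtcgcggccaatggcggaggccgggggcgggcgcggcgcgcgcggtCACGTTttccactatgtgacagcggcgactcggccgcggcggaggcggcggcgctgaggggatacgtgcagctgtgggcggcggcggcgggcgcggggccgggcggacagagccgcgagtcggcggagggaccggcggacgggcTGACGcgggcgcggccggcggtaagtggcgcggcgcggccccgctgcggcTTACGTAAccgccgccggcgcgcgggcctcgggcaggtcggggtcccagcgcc

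An E-box stood in the windows of PER1, NR1D2 (2 copies at the second start) and BHLHE40, that is in 3 of 14 member windows, against 7.26% of all 35116 promoter windows. The E′-box was found in 5 member windows, those of PER2, CRY1, CRY2, CLOCK and NR1D1, against 5.34% of all windows. D-box letters occurred in 3 member windows, of PER2, PER3 and NR1D2, against 1.01% of all windows, and in PER2 they began 3 bases before the start. The RORE core was present in 3 member windows, of PER1 and CRY2, against 13.8% of all windows. The short cAMP response element was in 7 member windows, of PER2, CRY1, CRY2, CLOCK and NR1D2, against 24.6%. The full element TGACGTCA, which contains the short one, was in none of the 14 windows and in 1.85% of all windows. PER2, which rose, shares the E′-box with NR1D1 and the D-box with NR1D2 and PER3, which fell, as the map of motif positions shows. Windows of 1 gene are not independent, and the second window of PER3 overlaps its first. Member windows held 6 to 60 CpG (a C followed by a G), against a median of 14 over all windows. The E-box, the E′-box and the short cAMP response element each contain a CpG. The shares over all windows were not matched for CpG, so they do not show that a motif is particular to clock genes. A match describes letters only.

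**Figure D1:**
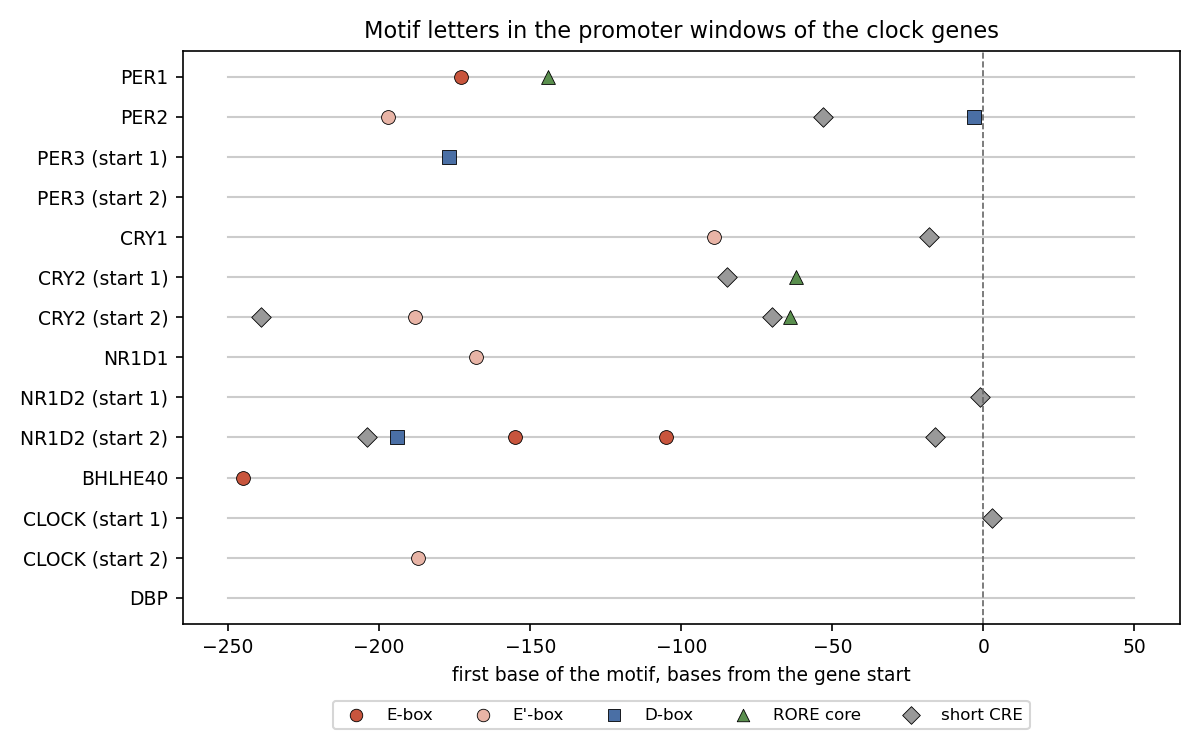
Positions of motif letters in the 14 RefSeq promoter windows of the clock genes, in bases from the annotated start (dashed line); each row is a window and each symbol a motif. E-boxes mark PER1, NR1D2 and BHLHE40, D-boxes PER2, PER3 and NR1D2, and the DBP window and the second PER3 window hold none of the motifs.

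Of the 10 clock genes, 7 fell in CBX7-overexpressing cells, PER2 rose, and CLOCK and DBP were not called. Calls are at an adjusted p under 0.05 in edgeR's quasi-likelihood test over all tested genes. By the same rule 13.9% of tested genes were called lower, 10.5% higher and 24.4% either way. Among the members 3 (NR1D1, PER1 and NR1D2) were called at least 2-fold lower, against 5.36% of tested genes. The median log2 fold change of the members was -0.62, against -0.00015 over all tested genes. The members were chosen with earlier results of these data known, so these contrasts describe the members and are not a test. In 7 members both CBX7 libraries lay below both control libraries, in 2 both lay above, and DBP overlapped. Such separation is common in this series: 31.9% of tested genes lay wholly below, 30.8% wholly above and 62.8% either way. The count of 7 lower members was 4 without CBX7 library 2, when PER3, CRY1 and CRY2 were no longer called.

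**Figure D2:**
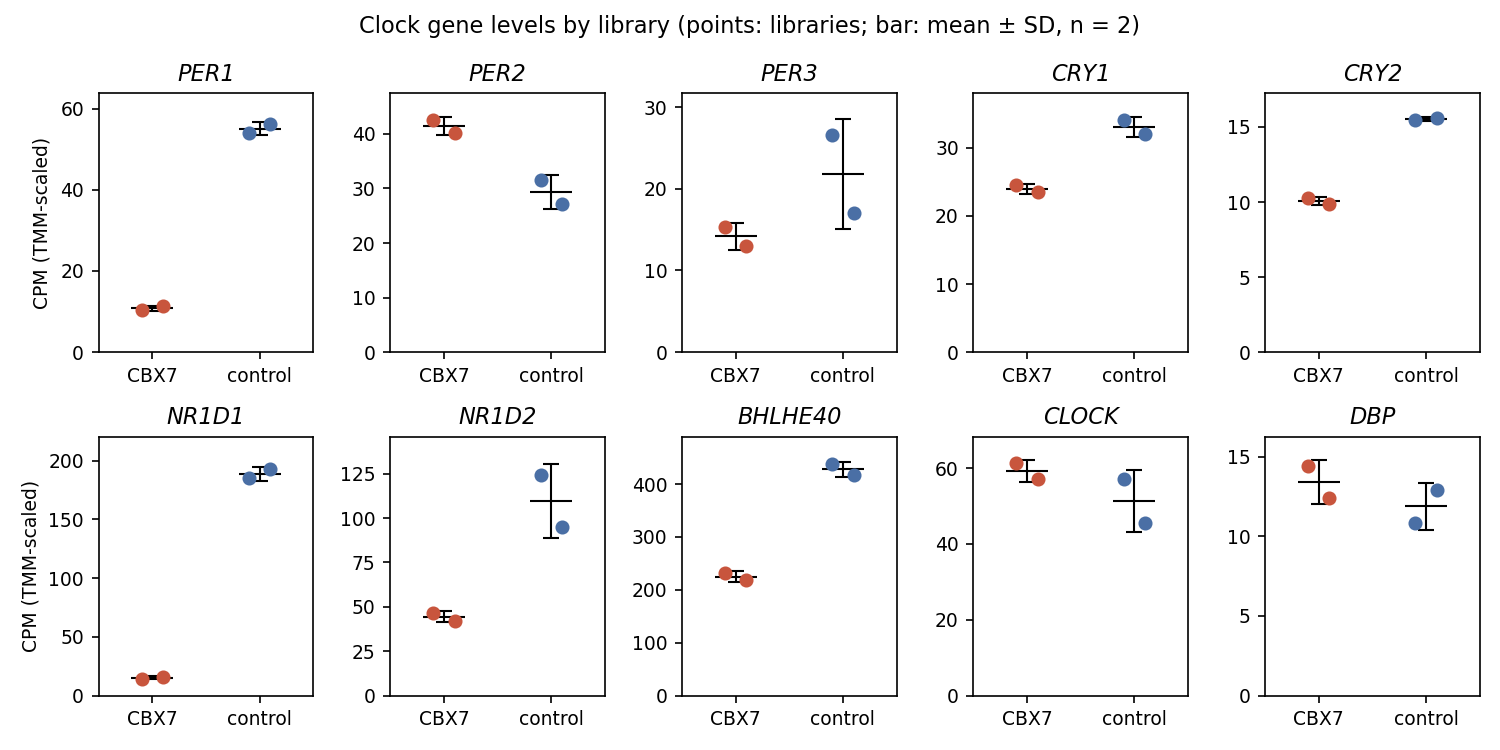
Level of each clock gene in every library, in CPM (counts scaled by library total and TMM factor), with CBX7-overexpressing libraries on the left and control libraries on the right; points are libraries and the bar is the mean ± SD (n = 2). NR1D1 sits at 14.4 and 16.0 CPM in CBX7 libraries and at 185 and 193 CPM in controls, and DBP is the gene whose groups overlap.

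Library totals were 90765502 and 88861255 counts for CBX7 libraries 1 and 2, against 88091494 and 69877585 for control libraries 1 and 2, and the lowest count of any member in any library was 881. CBX7 itself was at 18.1 ± 1.31 CPM in the overexpressing line and 8.37 ± 0.521 CPM in the control line (SD, n = 2 each), as the labels say. Keratins KRT8 and KRT18 were abundant in both lines, CDKN2A, which is deleted in A549, had 0 and 4 counts with CBX7 and 0 and 5 in controls, and EPCAM and KRT19, also on the epithelial list, were low at 1.60 and 0.176 CPM with CBX7 and 0.919 and 0.278 CPM in controls. Markers of other cells were low: the 5 leukocyte genes summed to 3.26 and 2.65 CPM in CBX7 libraries and 1.36 CPM in both controls, with CD3E at 0 throughout and PTPRC at 9 counts or fewer. The 4 endothelial genes summed to 2.88 and 3.68 CPM with CBX7 and 1.61 and 0.836 CPM in controls, and the 5 fibroblast genes to 7.95 and 7.30 CPM with CBX7 and 5.12 and 7.58 CPM in controls, nearly all of it COL1A1 at 637 and 570 counts with CBX7 and 339 and 427 in controls, with COL1A2 and DCN at 12 counts or fewer. CD14 and CDH5, at 2.80 and 2.90 CPM with CBX7, were the members of the leukocyte, endothelial and fibroblast lists called higher. On the epithelial list of 8 genes, AKR1B10 and AKR1C1 were called higher (log2 fold changes 0.57 and 1.03) and KRT7 lower (-0.29). The other 5 were not called. The lines also differed in other gene programmes. All 17 tested interferon-stimulated genes were called lower (382 and 432 CPM summed in CBX7 libraries, 13960 and 12480 CPM in controls), as were 14 of 15 early response genes (551 and 569 CPM with CBX7, 1645 and 1537 CPM in controls), while 3 of 8 cell cycle genes were called higher. The part of these programmes in the clock gene changes was not tested.

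Both NR1D receptors fell, and NR1D1 had the largest fall of the 10 members, ahead of PER1. NR1D1 (chromosome 17, 40092787 to 40100725, minus strand, GRCh38 with GENCODE 29 here and for the other members), the REV-ERB alpha repressor of BMAL1, had 1352 and 1446 counts in CBX7 libraries 1 and 2, against 15910 and 13166 in control libraries 1 and 2. Scaled for depth these were 14.4 and 16.0 CPM with CBX7 and 185 and 193 CPM in controls, so the groups lie far apart and each pair is tight. The mean was 12.4-fold lower (log2 fold change -3.63, SE 0.118, edgeR adjusted p = 2.31e-11). Among the 2399 genes called lower, NR1D1 had the 239th largest fall. The last exons of NR1D1 overlap THRA, the thyroid hormone receptor alpha gene on the opposite strand, over 263 bases, or 9.49% of the NR1D1 transcript, and whether strand was used in counting is not given in the sources used here. THRA was at 49.9 and 47.6 CPM with CBX7 and 32.9 and 39.8 CPM in controls, a log2 fold change of 0.42 (adjusted p = 0.0228) whose call was lost without CBX7 library 1 (adjusted p = 0.149), CBX7 library 2 (0.0510) or control library 1 (0.113). With the counts of both genes added together, an alternative chosen after seeing the data, the summed feature had a log2 fold change of -1.82, with SE 0.101 and adjusted p = 1.02e-08.

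NR1D2 (chromosome 3, 23945260 to 23980618, plus strand), the REV-ERB beta paralog with overlapping function, had 4360 and 3801 counts with CBX7 and 10704 and 6482 in controls. These were 46.6 and 42.1 CPM with CBX7 and 124.3 and 95.02 CPM in controls, with more spread between the controls than between the CBX7 libraries but no overlap. Its mean was 2.47-fold lower (log2 fold change -1.31, SE 0.134, adjusted p = 7.29e-06). The paralogs fell unequally: within a library, where no scaling enters, NR1D1 counts were 0.310 and 0.380 of NR1D2 counts with CBX7, against 1.49 and 2.03 in controls. The order of the pair was thus turned round in the overexpressing line.

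The PER genes, which encode the period proteins that bind CRY and carry it into the repressive complex, did not move together. PER1 (chromosome 17, 8140472 to 8156506, minus strand) had 970 and 1015 counts with CBX7 and 4648 and 3834 in controls, or 10.4 and 11.3 CPM with CBX7 and 54.0 and 56.2 CPM in controls. Both CBX7 libraries were far below both controls: the mean was 5.10-fold lower (log2 fold change -2.35, SE 0.125, adjusted p = 6.14e-09). PER2 (chromosome 2, 238244038 to 238290102, minus strand) went the other way, with 3985 and 3626 counts with CBX7 and 2713 and 1853 in controls, or 42.6 and 40.2 CPM with CBX7 and 31.5 and 27.2 CPM in controls. The groups did not overlap, and the mean was 1.41-fold higher (log2 fold change 0.50, SE 0.123, adjusted p = 0.00965). The call of PER2 was lost without CBX7 library 1 (adjusted p = 0.0907). Within a library PER1 counts were 0.243 and 0.280 of PER2 counts with CBX7 and 1.71 and 2.07 in controls, so PER2 had more counts than PER1 with CBX7 and fewer in controls.

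PER3 (chromosome 1, 7784320 to 7845177, plus strand), the period gene least needed for rhythm in mice, had 1438 and 1176 counts with CBX7 and 2287 and 1166 in controls. In CPM these were 15.4 and 13.0 with CBX7 and 26.6 and 17.1 in controls, and control library 2 lay close to the CBX7 libraries. The mean was 1.54-fold lower (log2 fold change -0.62, SE 0.192, adjusted p = 0.0324). That value rests on control library 1: without it the log2 fold change was -0.26 and the gene was not called (adjusted p = 0.304), nor was it without CBX7 library 2 (0.108) or with library totals in place of TMM (0.0528). UTS2, which overlaps PER3 on the opposite strand over 868 bases, had 12 counts or fewer in every library.

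The cryptochromes, the direct inhibitors of CLOCK and BMAL1, fell by modest amounts. CRY1 (chromosome 12, 106991364 to 107093829, minus strand), whose loss shortens the period in mice, had 2294 and 2120 counts with CBX7 and 2942 and 2183 in controls, or 24.5 and 23.5 CPM with CBX7 and 34.2 and 32.0 CPM in controls. CRY2 (chromosome 11, 45847118 to 45883248, plus strand) had 961 and 892 counts with CBX7 and 1331 and 1066 in controls, or 10.3 and 9.89 CPM with CBX7 and 15.5 and 15.6 CPM in controls. In both genes the groups did not overlap and replicates were close. The mean of CRY1 was 1.38-fold lower (log2 fold change -0.46, SE 0.120, adjusted p = 0.0124) and that of CRY2 1.54-fold lower (log2 fold change -0.62, SE 0.152, adjusted p = 0.00854). Both calls depended on single libraries: CRY1 was not called without CBX7 library 1 (adjusted p = 0.0811), CBX7 library 2 (0.119) or control library 1 (0.0514), and CRY2 not without CBX7 library 1 (0.0576) or CBX7 library 2 (0.0852). The CRY1 to CRY2 ratio of counts was 2.39 and 2.38 with CBX7 and 2.21 and 2.05 in controls, so the pair kept nearly the same proportion. PER2 counts were 1.74 and 1.71 times those of CRY1 with CBX7, against 0.922 and 0.849 in controls. These counts are not corrected for transcript length. Per kilobase of transcript, mean PER2 was below CRY1 in both lines (6.48 against 7.35 CPM with CBX7, 4.59 against 10.1 CPM in controls).

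BHLHE40 (chromosome 3, 4979116 to 4985323, plus strand), the E-box repressor DEC1, had 21747 and 19664 counts with CBX7 and 37660 and 28499 in controls, or 232 and 218 CPM with CBX7 and 437 and 418 CPM in controls. The groups were well apart, with a mean 1.90-fold lower (log2 fold change -0.93, SE 0.0938, adjusted p = 6.77e-06). Its antisense neighbour BHLHE40-AS1 shares 4 bases with its transcript and had 107 counts or fewer in every library.

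CLOCK (chromosome 4, 55427903 to 55547138, minus strand), the activator of the loop, had 5744 and 5163 counts with CBX7 and 4912 and 3102 in controls, or 61.4 and 57.2 CPM with CBX7 and 57.0 and 45.5 CPM in controls. Its lowest CBX7 library was level with its highest control. The log2 fold change was 0.21 with a 95% interval of -0.06 to 0.48 (adjusted p = 0.253), and CLOCK was called higher without control library 1 (log2 fold change 0.39, adjusted p = 0.0370). DBP (chromosome 19, 48630030 to 48637438, minus strand), the D-box activator of the output arm, had 1348 and 1120 counts with CBX7 and 933 and 881 in controls, or 14.4 and 12.4 CPM with CBX7 and 10.8 and 12.9 CPM in controls. These groups overlapped, and the log2 fold change of 0.18 had an interval of -0.18 to 0.53 (adjusted p = 0.496). SPHK2, on the opposite strand, overlaps 29.7% of the DBP transcript and was at 13.2 and 11.7 CPM with CBX7 and 7.92 and 9.94 CPM in controls (log2 fold change 0.48, adjusted p = 0.0646), so the DBP counts are uncertain if strand was not used. The shift therefore covered 7 of the 8 repressor genes among the members (PER, CRY, NR1D and BHLHE40, median log2 fold change -0.77). Of these, PER3, CRY1 and CRY2 were not called when some single libraries were left out. The fold change itself then moved widely for PER3 (-0.89 to -0.26) and little for CRY1 and CRY2. No change of DBP was detectable at this depth and spread. DBP alone does not stand for the output arm, since its paralogs TEF and HLF, which are not members, were called lower (log2 fold changes -0.97 and -1.11).

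**Figure D3:**
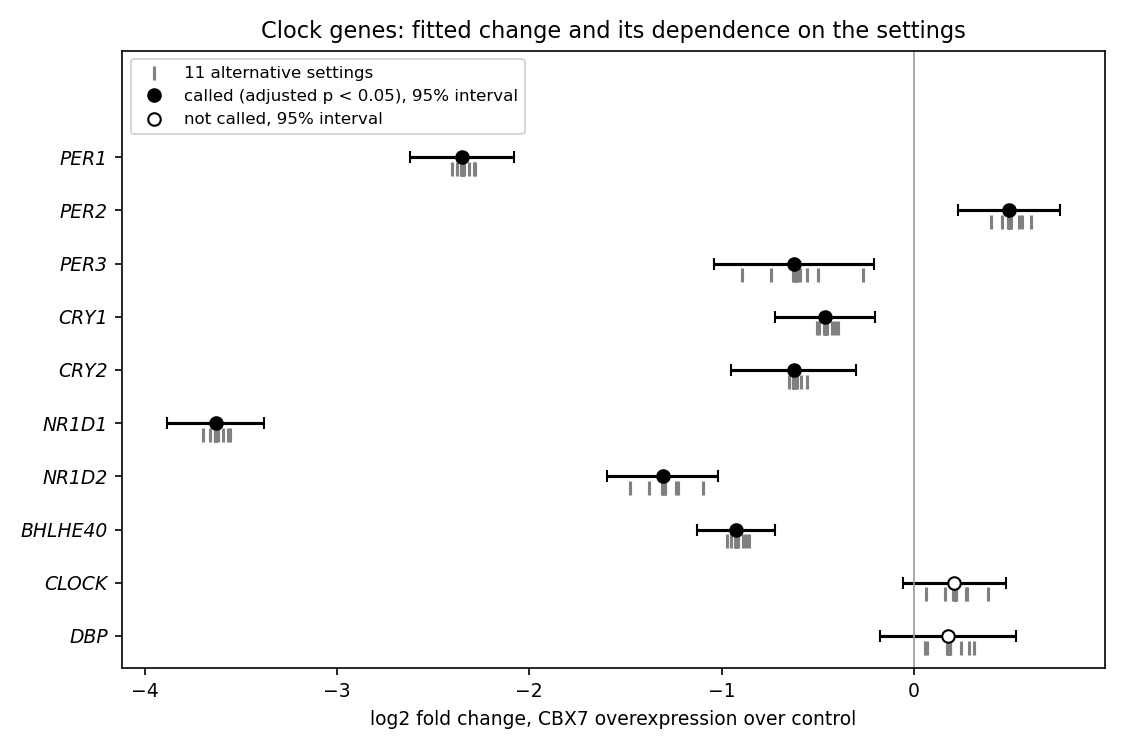
Log2 fold change of each clock gene, CBX7 overexpression over control, with its 95% interval (filled circles called, open circles not called) and its value under 11 alternative settings (grey ticks). NR1D1, PER1, NR1D2 and BHLHE40 stay below 0 with their call at every setting, PER3 spreads from -0.89 to -0.26, and the intervals of CLOCK and DBP span 0.

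Ratios between members need no scaling between libraries. Those of NR1D1 with CLOCK and DBP, which were not called, restate the fall of NR1D1. NR1D1 counts were 0.235 and 0.280 of CLOCK counts with CBX7 and 3.24 and 4.24 in controls. DBP counts were 0.997 and 0.775 of NR1D1 counts with CBX7 and 0.0586 and 0.0669 in controls. Compared per kilobase of the longest principal coding transcript in GENCODE 29, BHLHE40 had the highest level of the members in both lines, at 64.8 ± 2.90 CPM per kilobase with CBX7 and 123 ± 3.98 in controls (SD, n = 2 each). NR1D1 was at 5.50 ± 0.406 CPM per kilobase with CBX7, 7th in order, and at 68.1 ± 2.11 in controls, 2nd in order. PER1 was 9th at 2.30 ± 0.134 CPM per kilobase with CBX7 and 4th at 11.7 ± 0.335 in controls. In the CBX7 line NR1D2, CRY1 and PER2 followed BHLHE40 without overlap between neighbours, while PER2, DBP, CLOCK and NR1D1 overlapped each with the next, as did CRY2, PER1 and PER3. In the control line the first 5 (BHLHE40, NR1D1, NR1D2, PER1 and CRY1) were separate from each other. DBP, CLOCK and PER2 overlapped each with the next, and CRY2 overlapped with PER3. PER3, at 4.28 CPM per kilobase in control library 1, also overlapped with PER2, at 4.25 in control library 2.

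**Figure D4:**
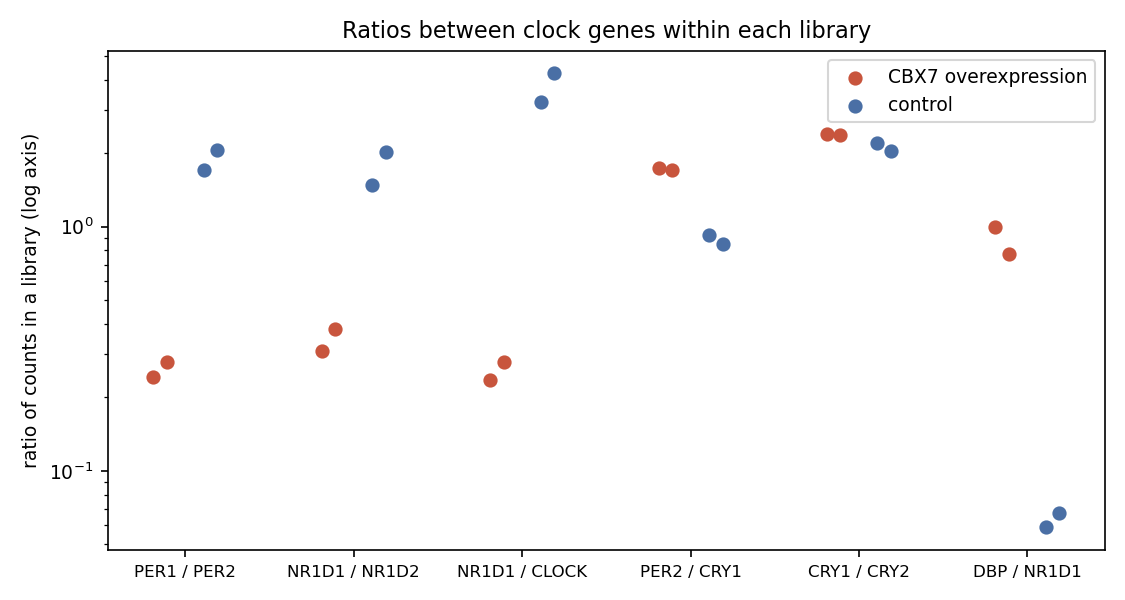
Ratio of counts between pairs of clock genes within each library, on a log axis; CBX7-overexpressing libraries are left and control libraries right in each pair, with 1 point per library. PER1 to PER2, NR1D1 to NR1D2 and NR1D1 to CLOCK are below 1 with CBX7 and above 1 in controls, whereas CRY1 to CRY2 stays between 2.05 and 2.39 in all libraries. Counts are not corrected for transcript length, so 1 does not mark equal levels. Per kilobase NR1D1 and CLOCK overlapped with CBX7, with means of 5.497 and 5.755 CPM.

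Other genes of the loops that are not members were mostly lower as well. Of 11 such partners 9 were tested, 6 were called lower and the other 3 were not called, with a median log2 fold change of -1.11. BHLHE41 (DEC2), the paralog of BHLHE40, was at 0.684 and 0.687 CPM with CBX7 and 29.1 and 21.8 CPM in controls, so it was nearly lost from the overexpressing line (37.1-fold lower, log2 fold change -5.21, SE 0.213, adjusted p = 2.78e-10). CIART, a repressor of CLOCK and BMAL1, had 0 counts in both CBX7 libraries against 29 and 23 in controls, at least 10.3-fold lower with a floor of 3 counts per library if the zeros are true absences (adjusted p = 0.0103). Its call was lost without either control library (adjusted p of 0.0737 and 0.0747). NFIL3, which opposes DBP at D-boxes, was at 16.4 and 18.6 CPM with CBX7 and 45.0 and 42.7 CPM in controls (log2 fold change -1.33, adjusted p = 3.19e-06). TEF and HLF, the paralogs of DBP, fell by 0.97 and 1.11 on the log2 scale (adjusted p = 0.00019 and 0.0056), and HLF was not called without control library 1 (0.0994). ARNTL2 (BMAL2), a paralog of BMAL1, fell by 1.26 on the log2 scale and was at 27.3 and 24.0 CPM with CBX7 and 68.9 and 54.0 CPM in controls (adjusted p = 1.27e-05). Named after their values were seen, BMAL1 itself, listed as ARNTL, was at 21.6 and 20.4 CPM with CBX7 and 19.7 and 19.5 CPM in controls (log2 fold change 0.10, interval -0.18 to 0.39, adjusted p = 0.648), and the CLOCK paralog NPAS2 was at 167 CPM with CBX7 and 164 CPM in controls (adjusted p = 0.898). RORA, an activator that competes with NR1D1 and NR1D2, was low, at 23 and 66 counts with CBX7 and 66 and 27 in controls.

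Among 20 clock output genes 10 were called lower and 2 higher, with a median log2 fold change of -0.36. The Krüppel-like repressor KLF10 was at 71.1 ± 4.59 CPM with CBX7 and 331 ± 49.6 CPM in controls (SD, n = 2 each), with a log2 fold change of -2.22 (adjusted p = 5.23e-09). CDKN1A, KLF11 and NAMPT fell by 0.88, 1.13 and 0.85 on the log2 scale. KLF13 and PPARA, a nuclear receptor of fatty acid use, rose with log2 fold changes of 0.80 and 0.61 (adjusted p = 7.45e-05 and 0.00626), and PPARA was not called without CBX7 library 2 (0.0535). NFIL3, TEF and HLF stand in both this list and the loop partners, and NAMPT and USP2 stand in both this list and the regulators of PER and CRY. The group thus moved in both directions, with more falls than rises.

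Regulators that act on the clock proteins were mostly not called. Of 28 kinases, ubiquitin ligase parts and other regulators of PER and CRY, 5 were called lower and 23 were not called, with a median log2 fold change of -0.09. PML, a nuclear body protein that is also induced by interferon, was at 8.48 and 11.2 CPM with CBX7 and 136 and 131 CPM in controls (log2 fold change -3.77, adjusted p = 1.40e-10). FBXW7, SIRT1, NAMPT and CSNK1A1 fell by 0.97, 0.71, 0.85 and 0.31 on the log2 scale, the last of them not called without CBX7 library 1, CBX7 library 2 or control library 1, or with library totals. The kinases CSNK1D and CSNK1E, named after their values were seen, had log2 fold changes of -0.24 and -0.10 and were not called. Of 14 coactivators and corepressors KDM5A, SIN3A, EP300 and CREBBP were called lower and 9 were not called, but without CBX7 library 2 none of these 4 was called. Of 18 genes of signal input PRKCA was higher (log2 fold change 0.70, adjusted p = 0.000241) and RPS6KA5, CREM, CREB1 and CRTC2 lower, with 2 called lower without CBX7 library 1, CBX7 library 2 or control library 1, or with library totals. The count called higher was 1 to 3 over the 11 alternatives, and it was 3 with library totals, limma-voom, a mean count of 50 or more or the replicate block. Over all 5 lists, counting each gene once, 4 of 84 tested genes were called higher and 25 lower, beside 10.5% and 13.9% of all tested genes.

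**Figure D5:**
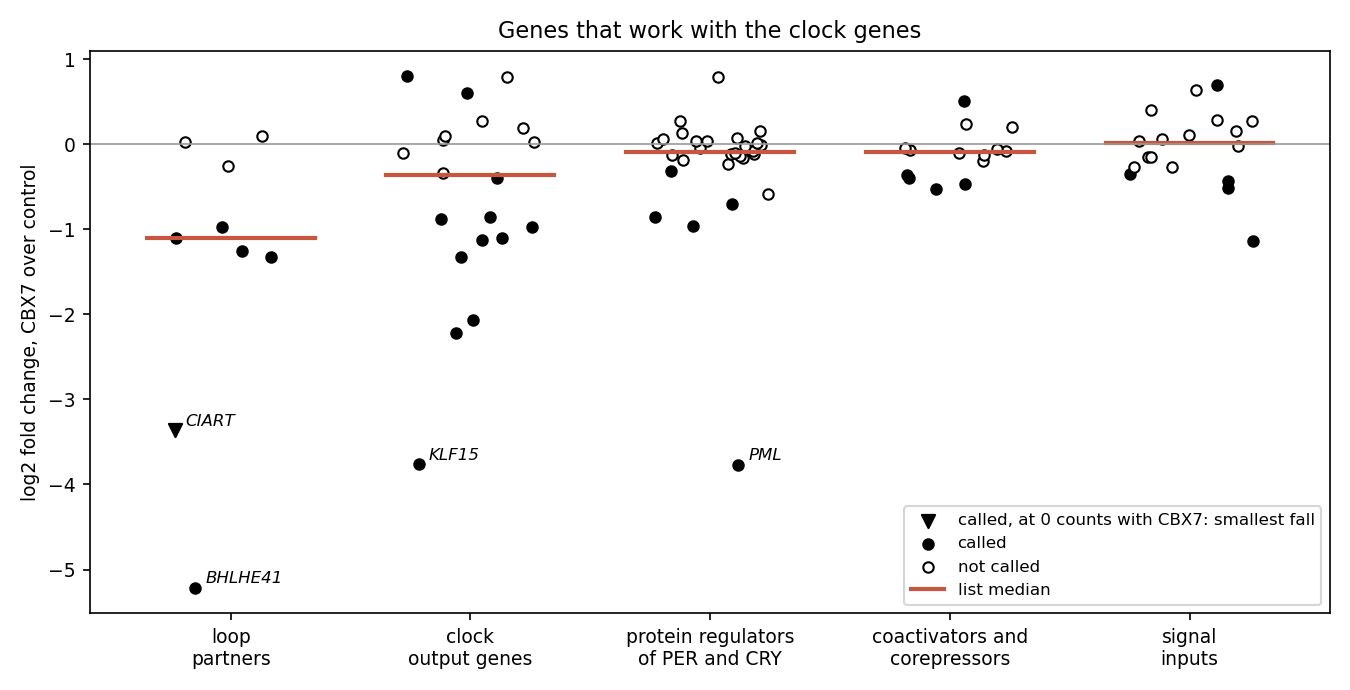
Log2 fold change, CBX7 overexpression over control, of the tested genes in 5 lists of genes that work with the clock (filled points called, open points not called, red line the list median); the triangle is CIART, at 0 counts with CBX7, drawn at the smallest fall its floor allows. BHLHE41 and CIART lead the loop partners, and most regulators of PER and CRY lie near 0.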

How the data were processed

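The submitters' processing notes name DESeq2, StringTie 2.2.1, HISAT2 2.2.1 and build hg38, with no role. Annotation and strandedness are not given in the sources. The authors deposited whole-number gene counts, treated here as estimated counts because StringTie derives counts from coverage; rounding changed 0 values. All 4 columns matched sample titles. Counts were filtered with filterByExpr, scaled with TMM (CPM is a count scaled by library total and TMM factor to 1000000) and tested with edgeR 4.0.16 in R 4.3.3 (quasi-likelihood, robust, group as the only term, Benjamini-Hochberg adjustment over 17271 genes). Each SE is the fitted change over the root of its F value, and 95% intervals use the same fit. The test was also run on counts simulated with the dispersions of these data and 200 genes changed. That is far fewer than were called here, so the run does not cover changes this broad. Alternatives were other scalings, other filters, limma-voom (limma 3.58.1), DESeq2 1.42.0, a replicate block and leaving out each library. Floors cover counting error only. Counts of replicates varied beyond sampling noise (a chi-square statistic of 45.5 per degree of freedom for CBX7 and 58.5 for control libraries), so none was taken as a repeat deposit. In bulk RNA, fewer cells with a transcript and less RNA per cell cannot be told apart. Gene positions came from GENCODE 29 and promoters from RefSeq, both on GRCh38.

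The members, the lists and the tests were chosen with earlier results of these data known. All members were to be named, with the called genes of each list up to the 6 with the smallest p in each direction; a few genes of the lists are not reported here. No gene was named for the likeness of its pattern, because 4 libraries in 2 groups give every clear difference the same pattern.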

Additional observations from a re-analysis of the deposited data

How the results depend on the processing

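NR1D1, PER1, NR1D2 and BHLHE40 kept their direction and call under the 11 alternatives on scaling, test, filter, block and left-out library, with log2 fold changes of -3.70 to -3.56, -2.40 to -2.28, -1.48 to -1.10 and -0.97 to -0.86, and no member changed sign. With 1 library left out, clock genes called lower numbered 4 to 7 and those called higher 0 to 2 (CLOCK joined PER2 without control library 1), the members' median ran from -0.75 to -0.52, and genes called higher over the whole table ran from 1021 to 1790. Library totals in place of TMM moved the median of all genes by 0.0661 and gave 2487 higher and 2033 lower genes, against 1809 and 2399 with TMM, with 6 clock genes lower. The replicate numbers are shared by the lines but no label says that they pair libraries (correlation of deviations 0.108). With the replicate block 2100 genes were called higher and 2503 lower, and each of the 10 members kept its call, 7 lower and 1 higher. PER2, PER3, CRY1 and CRY2 each lost their call without at least 1 library. Without the hour of harvest, a shift of phase and a change of mean level cannot be told apart.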

Other observations

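The BMAL pair differed between the lines in proportion. ARNTL2 (BMAL2) counts were 1.265 and 1.176 times those of ARNTL (BMAL1) in CBX7 libraries, against 3.503 and 2.77 times in controls. ARNTL counts were 1.493 and 1.275 times those of NR1D1, its repressor, in CBX7 libraries, against 0.1065 and 0.101 times in controls, while ARNTL itself was not called. KLF15, a Krüppel-like factor of metabolism named after its values were seen, had 6 and 8 counts in CBX7 libraries and 82 and 79 in controls (log2 fold change -3.76, edgeR adjusted p = 0.00244).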
